A study of Arabidopsis thaliana with 10 samples.

Results

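The genes described here encode proteins that hold, sense, trim and rejoin the ends of a broken chromosome: KU70, KU80, LIG4, XRCC4, MRE11, RAD50, NBS1, COM1 and ATR of Arabidopsis thaliana. They were taken by their locus codes, whatever their signal, and 9 of 9 had a probe on the array, among 34290 genes there, with 10 probes in all among 43603. Their transcripts were measured in whole Columbia-0 seedlings aged 14 days, in a gamma group and a mock group. The gamma seedlings had received 200 Gy at 50 Gy per h over 4 h from a cobalt source. The mock seedlings had no radiation, both were sampled at 24 h, and no line carried a mutation or transgene, per the labels. There were 5 runs on different days, each with its own plants and with 1 gamma array and 1 mock array.

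A broken DNA end in a plant cell can be handled along alternative routes. The Ku heterodimer of KU70 and KU80 slides onto the end and shields it, and DNA ligase IV with its partner XRCC4 then seals the break by classical end joining. The complex of MRE11, RAD50 and NBS1 also binds the end, activates the kinase ATM and, with COM1, starts the trimming that exposes single-stranded DNA for recombination. Such single-stranded DNA is what calls in the kinase ATR, and both kinases act on the transcription factor SOG1, which switches on much of the transcriptional response to DNA damage in plants.

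Of the 9 genes, 1 rose after irradiation and 0 fell. COM1, also called GR1 for gamma response, was 7.87-fold higher, an increase of 2.98 ± 0.19 SE on the log2 scale over 5 pairs of arrays (adjusted p = 0.00157 from limma, by the Benjamini-Hochberg method). The other 8 did not pass the adjusted threshold of 0.05, and their 95% intervals together ran from -0.50 to 0.34 on the log2 scale. Among all 23666 genes tested 4.11% passed, 1.7% upward and 2.41% downward. The 9 genes were chosen with earlier results of these data known, so the 1 of 9 is no test against these shares. The balance of upward and downward calls over all genes turned with the scaling: 516 were higher and 495 lower when arrays were scaled to their median. At an unadjusted p under 0.05 there were 3 of the 9, COM1, MRE11 and LIG4, beside 22% of all genes tested. The median change over the 9 was 0.03, beside -0.02 over all genes tested.

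The arrays could report on every gene of the group. All 9 were well above background on 10 of 10 arrays, and 71.7% to 76.6% of all probes were so on each array. The 6 damage response genes listed as a check, among them SMR7, BRCA1 and CYCB1;1, rose by between 2.29 and 5.72 on the log2 scale. The 5 leaf markers and 5 root markers were on the array and passed the filter, though 4 of the root markers were well above background on only 6 to 8 arrays. Levels below are the log2 processed signal minus the array's own 75th percentile, so that 0 stands for that percentile. A level says nothing about one gene against another, because each probe has its own brightness. The p-values rest on 5 pairs of arrays, and this number limits their precision. In each run the gamma array lay at slide position 2 and the mock array at position 1, so position and treatment cannot be told apart.

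**Figure D1:**
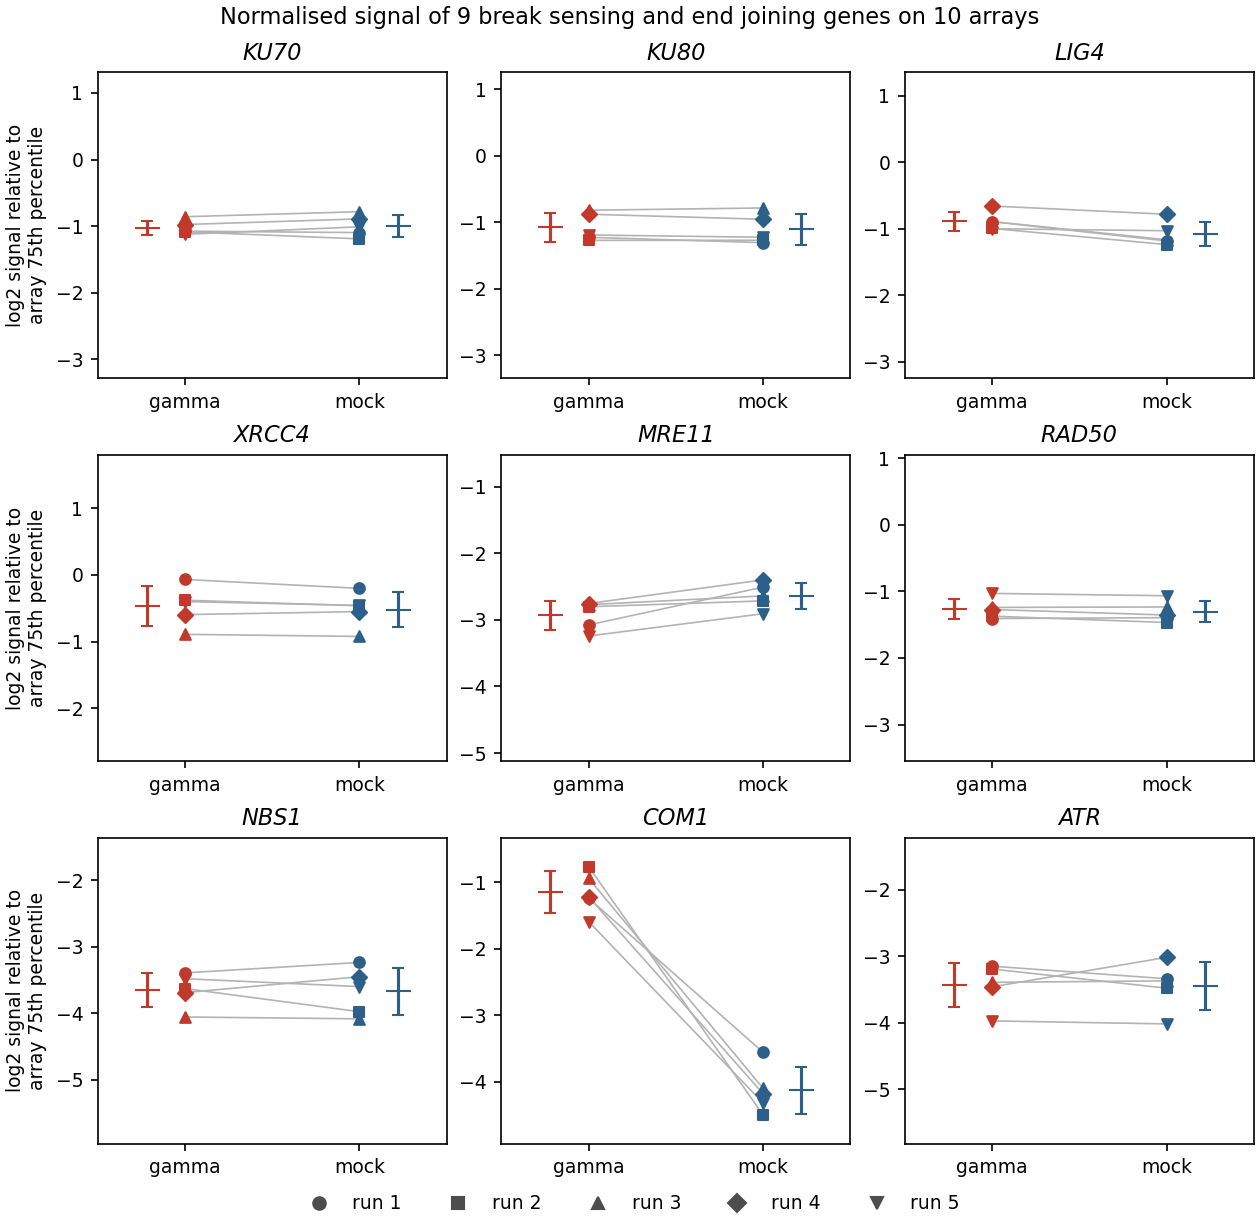
Level of each of the 9 genes on 10 arrays (y axis, log2 signal relative to the array's 75th percentile; each panel spans the same number of log2 units). Red points are gamma arrays and blue points mock arrays, marker shapes and grey lines join the arrays of a run, and bars beside them give mean ± SD (n = 5). The COM1 arrays separate fully, from -1.59 to -0.76 after gamma and from -4.49 to -3.55 after mock, while in the other 8 panels the groups overlap.

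KU70 and KU80, the subunits of the ring that first holds a broken end, did not pass in either direction. KU70 (AT1G16970) had levels of -1.08, -1.09, -0.86, -0.98 and -1.12 on the gamma arrays of runs 1 to 5, against -1.10, -1.19, -0.78, -0.89 and -1.01 on the mock arrays. The gamma level was the higher of the pair in runs 1 and 2 and the lower in runs 3, 4 and 5, and the groups overlapped. The estimate was -0.03 ± 0.06 SE (n = 5 pairs, limma adjusted p = 0.799), with a 95% interval from -0.17 to 0.11. Mean levels were -1.02 ± 0.11 on gamma arrays and -1.0 ± 0.16 on mock arrays (SD, n = 5 each). A second KU70 probe read -1.23, -1.27, -0.99, -1.11 and -1.43 on gamma arrays 1 to 5, against -1.15, -1.28, -0.85, -1.10 and -1.22 on mock arrays 1 to 5. It gave -0.09 ± 0.06 SE in the fit over all probes (adjusted p = 0.412). Over probes, 1 of the 10 passed, that of COM1, beside 3.1% of all 31700 probes tested.

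KU80 (AT1G48050) had levels of -1.23, -1.27, -0.82, -0.88 and -1.19 on gamma arrays 1 to 5, against -1.31, -1.27, -0.79, -0.96 and -1.23 on mock arrays 1 to 5. Each gamma array sat within 0.08 of its mock partner, while the runs lay up to 0.52 apart among the mock arrays. The estimate was 0.03 ± 0.05 SE (limma adjusted p = 0.75), with a 95% interval from -0.09 to 0.15. KU80 was among the most tightly measured genes of the array, with an SE lower than that of nearly all genes (percentile 2.19). At this SE a change of 0.25, or 1.19-fold, would have passed the threshold.

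LIG4 (AT5G57160), the ligase that seals the joined ends, was higher in 5 of 5 runs but did not pass. Its levels were -0.89, -0.99, -0.89, -0.66 and -1.0 on gamma arrays 1 to 5, against -1.18, -1.24, -1.16, -0.78 and -1.03 on mock arrays 1 to 5. The groups overlapped, because mock array 4 was brighter for this gene than 4 of the gamma arrays. The estimate was 0.19 ± 0.06 SE (1.14-fold, limma adjusted p = 0.143), with a 95% interval from 0.04 to 0.34. The change was 0.29, 0.24 and 0.27 in runs 1, 2 and 3 and 0.12 and 0.03 in runs 4 and 5. Mean levels were -0.89 ± 0.14 on gamma arrays and -1.08 ± 0.18 on mock arrays (SD, n = 5 each). Under the 16 other settings and subsets of runs tried, LIG4 kept its direction and the lowest adjusted p in limma was 0.104.

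XRCC4 (AT3G23100), the scaffold that binds and stabilises LIG4, differed far more between runs than within them. Its levels were -0.07, -0.38, -0.89, -0.60 and -0.40 on gamma arrays 1 to 5, against -0.20, -0.46, -0.92, -0.55 and -0.46 on mock arrays 1 to 5. Run 1 was the brightest and run 3 the dimmest in both groups, and the mock arrays alone spanned 0.72. The estimate was 0.05 ± 0.05 SE (limma adjusted p = 0.592), with a 95% interval from -0.07 to 0.18.

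Of the complex that binds broken ends ahead of trimming, 3 of 3 genes did not pass. MRE11 (AT5G54260), its nuclease, had levels of -3.08, -2.80, -2.77, -2.75 and -3.24 on gamma arrays 1 to 5, against -2.51, -2.71, -2.64, -2.40 and -2.91 on mock arrays 1 to 5. The gamma array was the dimmer of the pair in 5 of 5 runs, by 0.57, 0.09, 0.13, 0.36 and 0.34 in mock minus gamma, and the groups overlapped. The estimate was -0.30 ± 0.08 SE (limma adjusted p = 0.112), with a 95% interval from -0.50 to -0.09. Mean levels were -2.93 ± 0.22 on gamma arrays and -2.63 ± 0.20 on mock arrays (SD, n = 5 each). MRE11 too kept its direction under the 16 others, where the lowest adjusted p in limma was 0.0802, without run 2. Of the 9 genes 3 moved in 1 direction in all 5 runs, COM1, LIG4 and MRE11, where 23.8% of all genes tested did.

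RAD50 (AT2G31970), the coiled-coil ATPase that bridges the ends, had levels of -1.41, -1.37, -1.24, -1.27 and -1.03 on gamma arrays 1 to 5, against -1.39, -1.47, -1.23, -1.35 and -1.06 on mock arrays 1 to 5. No pair differed by more than 0.10, and the estimate was 0.04 ± 0.05 SE (limma adjusted p = 0.685), with a 95% interval from -0.08 to 0.16. Its SE, at percentile 2.27 of all genes tested, was like that of KU80 among the lowest.

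NBS1 (AT3G02680), the adaptor that ties the complex to ATM, had levels of -3.39, -3.63, -4.06, -3.69 and -3.48 on gamma arrays 1 to 5, against -3.24, -3.98, -4.08, -3.45 and -3.60 on mock arrays 1 to 5. The gamma level was the higher in runs 2, 3 and 5 and the lower in runs 1 and 4. The estimate was 0.02 ± 0.09 SE (limma adjusted p = 0.925), with a 95% interval from -0.21 to 0.25. The interval is wider than for RAD50, and a change of at least 0.48, or 1.39-fold, would have been needed to pass.

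COM1 (AT3G52115), the plant counterpart of yeast Sae2 and human CtIP, works with MRE11, RAD50 and NBS1 in trimming ends and is needed for meiotic break repair. Its processed signals, in linear intensity units, were 917, 1565, 982, 710 and 699 on gamma arrays 1 to 5, against 185, 88.8, 109, 93.3 and 108 on mock arrays 1 to 5. As levels these were -1.24, -0.76, -0.94, -1.22 and -1.59 after gamma and -3.55, -4.49, -4.09, -4.17 and -4.31 after mock. The lowest gamma array stood above the highest mock array, and COM1 was the 1 gene of the 9 whose groups did not overlap, as was so in either direction for 2.06% of all genes tested and upward for 0.908%. The rise was 4.98, 13.3, 8.90, 7.76 and 6.61-fold in runs 1 to 5, with the smallest in run 1, where the mock level was highest, and the largest in run 2, where it was lowest. Run 2 also had the highest gamma level of COM1, and it held the largest of the 5 changes for 45.4% of genes. The estimate of 2.98 had a 95% interval from 2.51 to 3.44, or 5.69-fold to 10.9-fold. Mean levels were -1.15 ± 0.32 on gamma arrays and -4.13 ± 0.35 on mock arrays (SD, n = 5 each), so that the groups were far apart and about equally spread.

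By size of increase COM1 was rank 27 among all genes tested, of which 0.211% rose at least 4-fold. Its mock signals were dim, at 5.72 to 21.5 times the lowest signal counted as well above background on the same array, against 37.1 to 162 times for its gamma signals. With normexp background correction at an offset of 50, followed by quantile normalization, the change was 2.41 (limma adjusted p = 0.000656). The call was kept on leaving out any 1 of the 5 runs, with estimates from 2.79 to 3.14. Within the runs of the earlier year, 1 and 2, the change was 3.02 (limma adjusted p = 0.196, in a fit with 1 residual degree of freedom, where 0 of all genes passed), and within runs 3, 4 and 5 it was 2.95 (adjusted p = 0.00457).

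**Figure D2:**
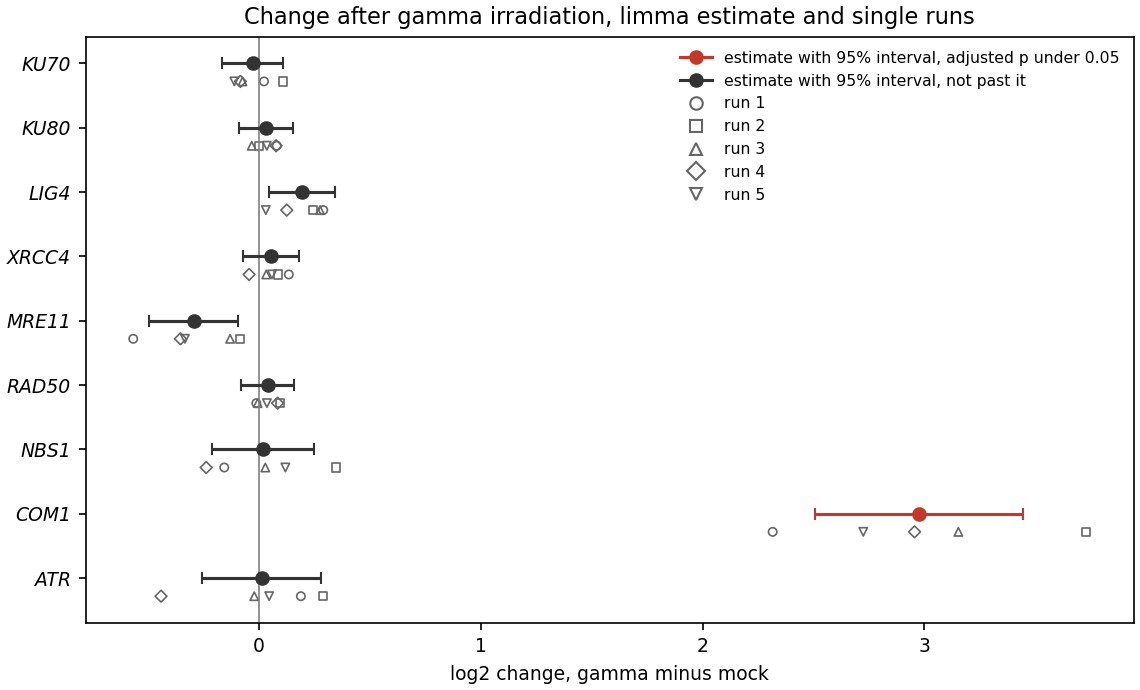
Change of each of the 9 genes (x axis, log2 gamma minus mock). Filled circles with bars are the limma estimate and its 95% interval over 5 pairs, red where the adjusted p was under 0.05, and open markers below them are the changes in single runs. COM1 stands at 2.98 with its 5 runs between 2.32 and 3.73, while the intervals of the other 8 lie between -0.50 and 0.34 and 6 of them include 0.

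ATR (AT5G40820), the kinase that answers to single-stranded DNA, had levels of -3.15, -3.19, -3.39, -3.46 and -3.97 on gamma arrays 1 to 5, against -3.34, -3.48, -3.37, -3.02 and -4.02 on mock arrays 1 to 5. Its changes were 0.19, 0.29, -0.02, -0.44 and 0.05 in runs 1 to 5, so that they ran in both directions. The estimate was 0.01 ± 0.11 SE (limma adjusted p = 0.963), with a 95% interval from -0.26 to 0.28. ATR had the widest interval of the 8 genes that did not pass, and a change under 0.56, or 1.47-fold, would not have been called.

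For 8 of the 9 genes the spread of the mock arrays over the runs exceeded the change with irradiation, as it did for 97.9% of all genes tested; COM1 was the exception. The mock range was lowest for RAD50 and KU70, at 0.40 and 0.41, and highest for COM1 and ATR, at 0.94 and 1.00. The changes were also compared between the later runs 3 to 5 and the earlier runs 1 and 2, which the titles place in different years. In limma 0 of the 9 differed, with 0 at an unadjusted p under 0.05, beside 1 of all 23666 genes (0.00423%) that differed and 10.5% at an unadjusted p under 0.05. The difference, later minus earlier, was -0.08 ± 0.42 SE for COM1 and -0.38 ± 0.18 SE for ATR, with 95% intervals from -1.14 to 0.99 and from -0.83 to 0.07. These intervals are wide, so the runs of the 2 years were not shown to act alike. LIG4 gave 0.14 in the later and 0.27 in the earlier runs, and MRE11 gave -0.27 in the later and -0.33 in the earlier. KU80, XRCC4 and RAD50 gave 0.03, 0.01 and 0.04 in the later runs, against 0.04, 0.11 and 0.04 in the earlier. The sign differed for 3 genes whose estimates lay near 0: KU70 gave -0.09 later and 0.06 earlier, NBS1 -0.03 and 0.09, and ATR -0.14 and 0.24.

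**Figure D3:**
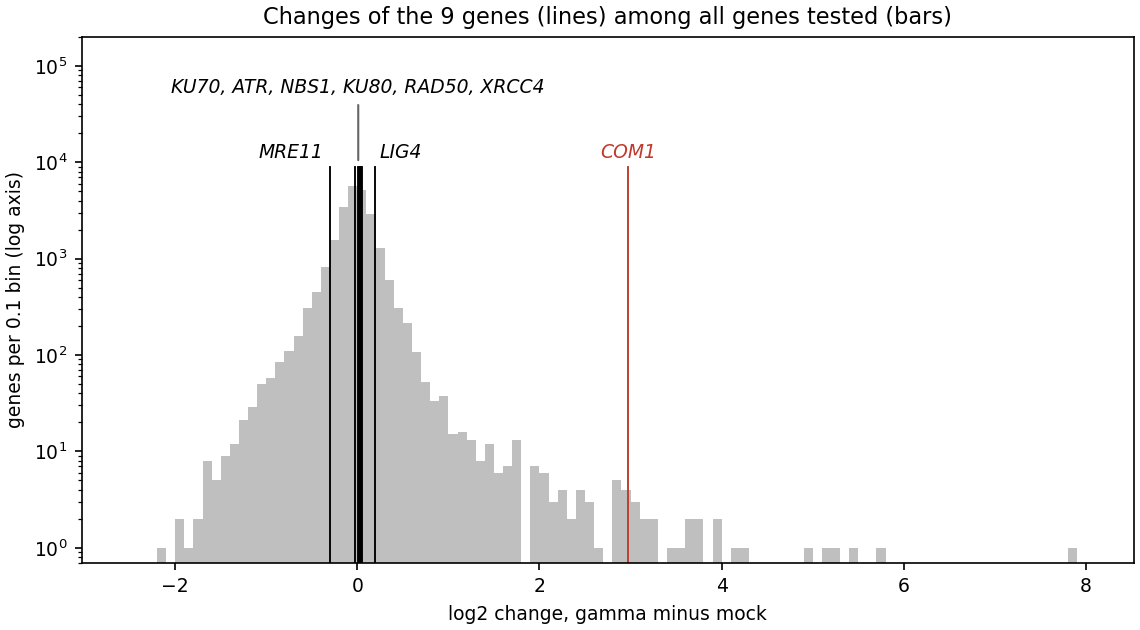
Changes of the 9 genes (vertical lines) among the 23666 genes tested (bars, number of genes per bin on a log axis; x axis, log2 gamma minus mock). The lines of 8 genes stand within the main body, between -0.30 and 0.19, and that of COM1 stands in the upper tail at 2.98.

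Genes whose changes over the 5 runs lay close to those of COM1 were sought among the 361 named genes past the threshold. TK1a (AT3G07800), a thymidine kinase gene, lay at a root mean square distance of 0.28 over the 5 runs, with an increase of 2.995 ± 0.125 SE on the log2 scale (limma adjusted p = 0.000349). It rose by 2.75, 3.34, 3.33, 2.92 and 2.64 in runs 1 to 5, beside 2.32, 3.73, 3.15, 2.96 and 2.73 for COM1. The chromatin remodelling gene chr31 (AT1G05490) lay at 0.36, with 2.48, 3.14, 2.98, 2.52 and 2.93 in runs 1 to 5.

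Of 22 other genes of break signalling, end trimming and end joining, 18 were matched to a probe and tested, of which 5 rose, 0 fell and 13 did not pass. The 4 to which no probe was matched were ATM, RAD9, PARP3 and SNM1, so the kinase that NBS1 recruits was not analysed here. The median change of the 18 was 0.17, and 10 of the 18 reached an unadjusted p under 0.05, beside the shares of all genes given above. The list was drawn up with earlier results of these data known, so its counts are no test against those shares. The poly(ADP-ribose) polymerases, which mark breaks and serve the alternative end joining route, both rose. PARP2 (AT4G02390), with the largest increase of the list, was 12.9, 22.4, 15.5, 14.7 and 13.5-fold higher in runs 1 to 5 (log2 3.95 ± 0.12 SE, limma adjusted p = 0.000241). PARP1 (AT2G31320) was 2.63, 3.86, 3.15, 2.70 and 2.84-fold higher (log2 1.59 ± 0.09 SE, adjusted p = 0.00113).

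RAD17 (AT5G66130), which loads the checkpoint clamp in ATR signalling, had levels of 0.53, 0.82, 0.54, 0.54 and 0.79 on gamma arrays 1 to 5, against -1.25, -1.19, -1.87, -1.78 and -0.69 on mock arrays 1 to 5. The groups did not overlap, and the gene was 4.01-fold higher, by 2.00 ± 0.14 SE on the log2 scale (limma adjusted p = 0.00245). HUS1 (AT1G52530), a subunit of that clamp, rose 1.38-fold (0.47 ± 0.08 SE, adjusted p = 0.0397) and is named after its values were seen. HUS1 was well above background on 9 of 10 arrays and lost its call without the block (adjusted p = 0.985) and without any 1 of the 5 runs, with adjusted p from 0.06 to 0.136. ZDP (AT3G14890), a phosphatase that cleans damaged ends, rose 1.48-fold (0.56 ± 0.09 SE, adjusted p = 0.0307) but lost its call without run 1, 3, 4 or 5 (up to 0.108).

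The direct partners of ATR did not pass. SUV2 (AT5G45610), the plant ATRIP, gave 0.06 ± 0.05 SE (limma adjusted p = 0.519, higher in 5 of 5 runs). SOG1 (AT1G25580), the transcription factor downstream of the kinases, gave -0.14 ± 0.06 SE (adjusted p = 0.23, lower in 5 of 5 runs). Of all genes tested, 23.8% kept the same direction in all 5 runs. The remaining 11 genes of the list lay between -0.26 and 0.37, none past the threshold. Among them, named after their values were seen, were POLQ, the polymerase of alternative end joining, at -0.02 ± 0.19 SE, and the nuclease gene EXO1A, which extends trimming, at 0.37 ± 0.10 SE.

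**Figure D4:**
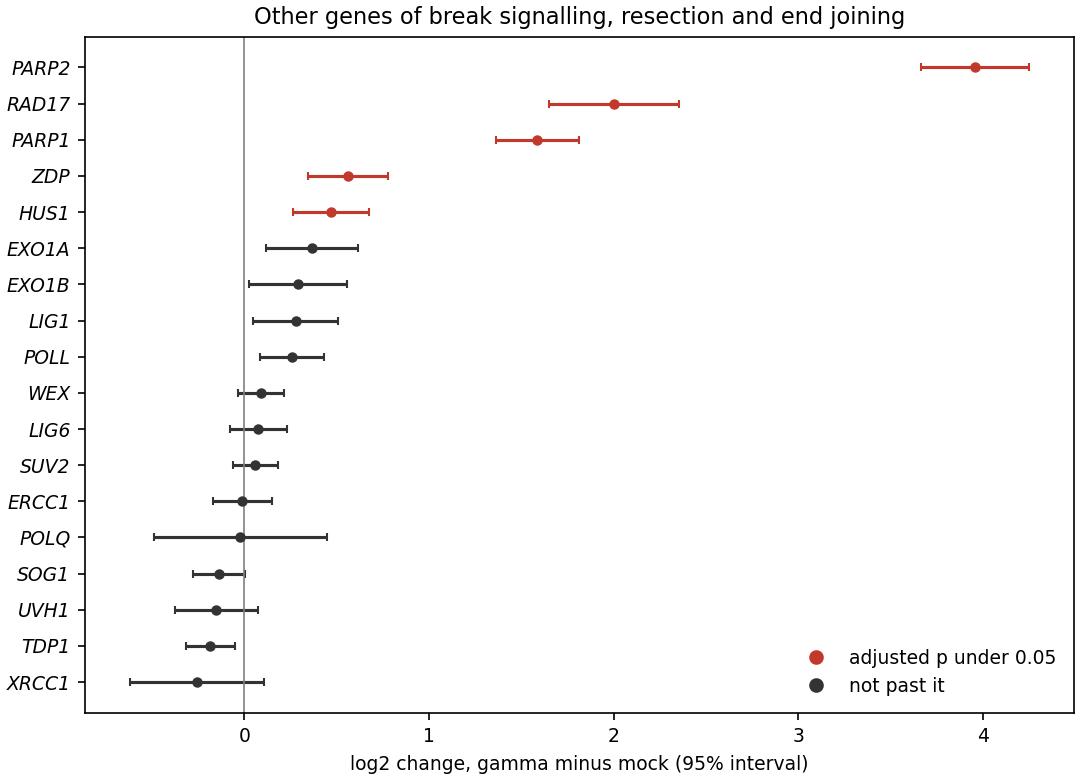
Changes of the 18 other genes of break signalling, trimming and end joining that were tested (x axis, log2 gamma minus mock; points are limma estimates, bars 95% intervals, 5 pairs). Red points passed the adjusted threshold of 0.05: PARP2, RAD17, PARP1, ZDP and HUS1, from 3.95 at the top to 0.47, with the other 13 below them.

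Of 12 markers of dividing cells 6 passed, in both directions. Of 7 genes of G2 and mitosis 5 fell and 0 rose, with a median of -0.73. Their summed level lay between 0.69 and 1.86 on gamma arrays and between 1.81 and 2.47 on mock arrays. KNOLLE, whose probe was the brightest of the 7, weighs most in that sum, with mean levels of 0.02 after gamma and 0.82 after mock. CYCB1;1, also a B-type cyclin gene, was listed with the damage response genes and is not among these 7. It rose by 2.29 ± 0.14 SE on the log2 scale (limma adjusted p = 0.00137). Of 5 genes of S phase 1 rose, RNR1, with a list median of 0.48, and their summed level lay between 2.14 and 2.82 on gamma arrays, against 1.23 to 1.98 on mock arrays. RNR1, whose probe was the brightest of the 5, weighs most in that S phase sum, with mean levels of 1.71 after gamma and 0.44 after mock. The other 4 did not pass: MCM2, MCM5 and PCNA1 gave changes of 0.39, 0.48 and 0.58, and CDT1A gave -0.01. Of 5 leaf markers 0 passed, with 0 at an unadjusted p under 0.05 in limma and a summed level of 8.96 to 9.58 on gamma arrays, against 8.85 to 9.58 on mock arrays. Of 5 root markers 3 fell, with a summed level of 0.19 to 0.97 after gamma and 0.79 to 1.63 after mock. That sum is nearly all CASP1, which did not pass (limma adjusted p = 0.0964). The 3 that fell, CASP5, PLT1 and RGF2, were too dim to weigh in it. They were well above background on 8, 6 and 8 of 10 arrays, with mean levels of -6.57, -7.07 and -6.52 after gamma. Such signals lie near background, and a probe could pass the filter through the mock arrays alone. The sizes of these 3 falls are therefore uncertain. The part of the marker shifts in the COM1 result was not tested. In whole seedlings, fewer cells of a type and less RNA per cell cannot be told apart.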

How the data were processed

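RNA of 10 samples was hybridised to 1-colour (Cy3) arrays. The deposited scanner files hold linear intensity, per the file headers: processed signals, background-subtracted and detrended within the array, and median spot and background signals, made by Agilent Feature Extraction, whose version is 11.0.1.1 in the headers and 9.1 per the submitters' processing notes. No scaling between arrays is recorded. The deposited value table holds linear ratios: 77.7% of its probes had a median over the arrays of 1 within 1e-04, and each column followed that array's probe-centred log2 signal with r between 0.9975 and 0.9991 across probes. Its column medians were 0.967, 0.960, 0.967, 0.992 and 0.925 for gamma arrays 1 to 5 and 0.969, 0.963, 0.959, 0.974 and 0.925 for mock arrays 1 to 5. The centring of its other probes and its scaling between arrays are unknown, and it served only as an alternative.

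Control spots and outlier spots were left out and replicate spots averaged. Log2 processed signals were taken minus each array's 75th percentile. Probes were named by transcript accession or locus code through the RefSeq gene table of TAIR10.1 (34348 of 43603 matched); the array grid names TAIR10, so no coordinates are given. The brightest probe stood for a gene, and a probe entered when 5 or more arrays had it well above background. The fit was limma 3.58.1 under R 4.3.3, gamma minus mock with the run as a block, and p-values were adjusted by Benjamini-Hochberg over all genes (4 residual degrees of freedom, 2.27 from the prior). The run comes from the titles; deviations from group means correlated within runs at 0.737, 0.562, 0.775, 0.739 and 0.894. Slide and scan coincide with the run. Intervals are 95% and moderated. The change that would have passed is each gene's SE times the critical value at the largest p called, 0.00205. The fits were tested on simulated data.

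Named were the 9 genes with each probe, SOG1, SUV2, the 4 listed genes with the smallest adjusted p past the threshold, and the 3 genes nearest to each member past it. Of these, 1 gene is not reported here. The members and lists were chosen with earlier results of these data known.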

Additional observations from a re-analysis of the deposited data

How the results depend on the processing

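Of the 9 genes 1 rose and 0 fell, and COM1 was that gene, under each alternative tried but that of the 2 earlier runs alone, where 0 of 9 genes, 0 of 10 probes and 0 of all genes passed; that fit has 1 residual degree of freedom. Leaving out 1 run gave 1 gene called each time. The replicate block changed the count of all genes past the threshold, 973 with it and 141 without it. Of the 973, 403 were higher and 570 lower, but higher calls were the more numerous with array-median scaling (516 and 495), the deposited value table (518 and 494), no filter (174 and 158) and no block (107 and 34), and without run 1, 3, 4 or 5 (54.5% to 62.3% higher). The count was 332 without a filter, and 268, 1015, 191, 175 and 235 without run 1, 2, 3, 4 or 5. Of the pathway genes 5 rose, and 3 to 4 without 1 run. Without the block 4 pathway genes passed. COM1 lay between 2.41 and 3.14 over the 16 alternatives. The cause was not tested. Estimates near 0 changed sign: KU70 to 0.064 in the earlier runs, NBS1 to -0.031 and ATR to -0.14 in the later runs, and NBS1 between -0.063 and 0.084 and ATR between -0.058 and 0.12 without 1 run. Slide and scan could not be tried as a block of their own, since each coincides with a run. Signal over background was low for NBS1 and ATR, at 6.61 to 43.6 and 7.85 to 31.0 times the lowest signal well above background on gamma arrays.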

Other observations

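The gamma and mock arrays of run 2 lay farther apart than those of the other runs. The 75th percentile of the processed signal was 2654 on the gamma array and 1999 on the mock array of run 2, against 2160 and 2169 in run 1, and it was removed by the scaling. After scaling, the median absolute log2 change over all genes was 0.255 in run 2 and 0.133 to 0.153 in the others, and run 2 held the largest of the 5 changes for 45.4% of genes. Over the 9 genes and the 18 tested pathway genes it held the largest change for 15 of 27, but for only 3 of the 9 genes themselves, where run 1 held it for 4. In that run XRCC1 gave -0.95, EXO1A 0.79, EXO1B 0.79 and LIG1 0.68, where the other runs lay between -0.24 and 0.03, 0.18 and 0.42, 0.13 and 0.19, and 0.12 and 0.23. POLQ gave 0.71 in run 2 and -0.71 in run 4. These genes were singled out after their values were seen.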
